A study of Mus musculus with 29 samples.

Results

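Il10 and 7 genes through which interleukin-10 (IL-10) signals were followed in macrophages of wild-type (WT) and Rnaset2-/- mice. The 8 genes were taken by symbol from the 23930 genes of the expression table, and all 8 were found: the cytokine Il10, its receptor chains Il10ra and Il10rb, the kinases Jak1 and Tyk2, the transcription factor Stat3, and the target genes Socs3 and Bcl3. Rnaset2-/- mice lack RNase T2, a lysosomal enzyme that digests RNA, and the study asked how its loss changes macrophages of the spleen and liver. Macrophages were sorted by flow cytometry without any treatment, and 29 RNA samples in 9 groups were sequenced with Ion AmpliSeq, which reads 1 amplicon per gene. The spleen gave 3 WT and 3 Rnaset2-/- samples of Ly6C-hi macrophages (CD11b+), and 3 WT and 4 Rnaset2-/- samples of Ly6C-low macrophages (CD11b+ Fcgr4+). The liver gave 3 samples of each genotype for both subsets, and 4 WT samples of Kupffer cells (F4/80+ CD11b-intermediate Tim4+). The methods instead describe sorted Kupffer cells as F4/80+ CD11b-low and name no Tim4 antibody for that sort. No Rnaset2-/- Kupffer cells were analysed here. Both Rnaset2 genes of the mouse are deleted in Rnaset2-/- mice, so the deletion is carried by all cells of the animal. The mice were C57BL/6 of both sexes, and their ages are not given in the sources used here.

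IL-10 is a cytokine that dampens inflammatory activity, and macrophages are among the cells that both make it and respond to it. It binds a receptor of 2 chains: Il10ra encodes the chain particular to IL-10, and Il10rb encodes a chain shared with other cytokines of the IL-10 family. The kinase Jak1 sits on the first chain and Tyk2 on the second, and together they activate the transcription factor Stat3. In macrophages, STAT3 switches on Socs3, a feedback inhibitor of cytokine signaling, and Bcl3, a nuclear protein that binds NF-κB p50 and restrains inflammatory genes.

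Levels are given in RPM, the reads of a gene per 1000000 reads of its sample. Each sample held 11175843 to 21167602 reads, so that 3 reads corresponded to 0.142 to 0.268 RPM. The Rnaset2-/- splenic Ly6C-hi samples were the deepest, with 20404155 to 21167602 reads against 14280906 to 14415756 in the WT samples of that subset. The part of depth in that comparison was not tested. Genotype differences are log2 differences, Rnaset2-/- minus WT, after scaling the samples to each other. A gene was called when its adjusted p in limma was under 0.05 and its difference was over 1.5-fold. RNA from the X-linked gene Xist and from Y-linked genes showed that sex differed within and between groups. Rnaset2-/- splenic Ly6C-low replicate 2 lacked Xist (0.781 RPM) and held 301 RPM of Y-linked RNA, whereas the other splenic samples had the reverse pattern. The labels give the hepatic Rnaset2-/- subsets different gates, whereas the methods describe a single gate for both, so what separates them is uncertain. All 6 Rnaset2-/- hepatic samples held 150 to 291 RPM of Y-linked RNA with at most 0.154 RPM of Xist, and all 6 WT hepatic Ly6C samples held Xist, so sex and genotype cannot be told apart in hepatic comparisons. Replicates 2 and 3 of both WT hepatic Ly6C subsets held Xist together with 28.95 to 52.03 RPM of Y-linked RNA. The Ly6C-low markers (Fcgr4, Nr4a1, Cx3cr1, Ace and Spn) summed to 6059 to 13102 RPM in the splenic Ly6C-low samples and to 1997 to 2252 RPM in the splenic Ly6C-hi samples. In Rnaset2-/- hepatic Ly6C-low samples the Kupffer cell markers summed to 5859 to 10344 RPM, against 116 to 161 RPM in the WT samples with the same label and 6447 to 18799 RPM in sorted Kupffer cells. Among those markers Clec4f, which defines Kupffer cells, was 17.7 to 63.3 RPM in these Rnaset2-/- samples and 1674 to 5470 RPM in sorted Kupffer cells.

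Il10 (chr1:131019845-131024974, GRCm38, plus strand) had its highest mean in splenic Ly6C-low macrophages of Rnaset2-/- mice, where it rose far above WT. Its level in the 4 Rnaset2-/- splenic Ly6C-low samples was 80.4, 55.8, 157 and 167 RPM, against 4.61, 5.56 and 7.52 RPM in the 3 WT samples. The lowest Rnaset2-/- sample was thus well above the highest WT sample. In the splenic Ly6C-hi subset Il10 was 2.36, 4.90 and 1.14 RPM in Rnaset2-/- mice and 2.64, 1.04 and 2.03 RPM in WT mice, and these groups overlapped. In hepatic Ly6C-hi macrophages the level was 3.22, 7.03 and 9.62 RPM in Rnaset2-/- mice and 9.11, 32.2 and 30.2 RPM in WT mice, and the groups overlapped through WT replicate 1. In hepatic Ly6C-low macrophages it was 46.7, 41.1 and 48.8 RPM in Rnaset2-/- mice and 14.7, 46.1 and 56.4 RPM in WT mice. The WT values spread around the Rnaset2-/- values there. Kupffer cells held 9.58, 7.65, 6.99 and 13.6 RPM of Il10.

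**Figure D1:**
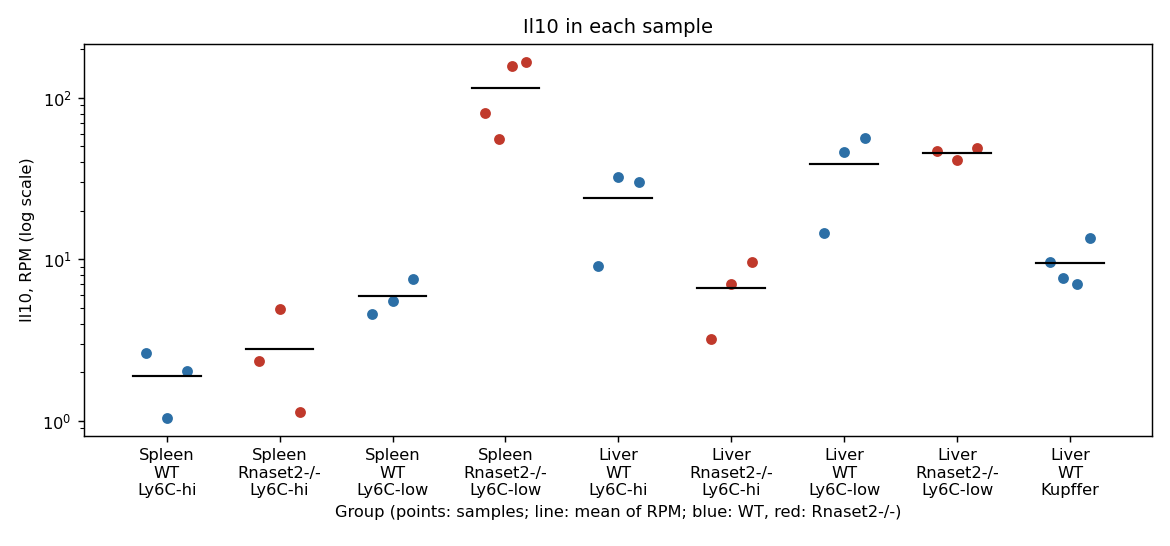
Il10 in RPM on a log axis in each of 29 samples, by organ, genotype and subset, with a line at the group mean. The 4 Rnaset2-/- splenic Ly6C-low samples (55.8 to 167 RPM) lie above every sample of the other groups, except that replicate 2 (55.8 RPM) is level with WT hepatic Ly6C-low replicate 3 (56.4 RPM).

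Ordered by mean, Il10 was 1.90 ± 0.805 RPM (SD, n = 3) in WT splenic Ly6C-hi, 2.80 ± 1.92 (n = 3) in Rnaset2-/- splenic Ly6C-hi and 5.90 ± 1.48 (n = 3) in WT splenic Ly6C-low macrophages. Rnaset2-/- hepatic Ly6C-hi macrophages followed with 6.62 ± 3.21 RPM (n = 3), and Kupffer cells with 9.45 ± 2.97 RPM (n = 4). The upper part of the order was WT hepatic Ly6C-hi at 23.8 ± 12.8 RPM (n = 3), WT hepatic Ly6C-low at 39.0 ± 21.7 (n = 3), Rnaset2-/- hepatic Ly6C-low at 45.6 ± 4.01 (n = 3) and Rnaset2-/- splenic Ly6C-low at 115 ± 55.4 RPM (n = 4). Each group overlapped the group below it in this order except the last, whose lowest sample (55.8 RPM) was above the highest Rnaset2-/- hepatic Ly6C-low sample (48.8 RPM).

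The genotype difference of Il10 in splenic Ly6C-low macrophages was 3.96 on the log2 scale (SE 0.398, adjusted p = 0.0011 in limma), and the ratio of the mean RPM was 19.5. The corresponding difference in splenic Ly6C-hi macrophages was 0.39 (SE 0.354, adjusted p = 0.417), and the 95% interval ran from -0.40 to 1.17. In a single fit over both splenic subsets, Rnaset2-/- minus WT was 3.57 higher in Ly6C-low than in Ly6C-hi macrophages (SE 0.614, adjusted p = 0.00317). The difference was also larger in splenic than in hepatic Ly6C-low macrophages, by 3.57 (SE 0.672, adjusted p = 0.00202). In the Ly6C-hi subset the genotype difference of Il10 was 2.26 higher in spleen than in liver (SE 0.692, adjusted p = 0.0241). That last call was lost without splenic WT replicate 2 or splenic Rnaset2-/- replicate 2 of the Ly6C-hi subset, or without hepatic WT replicate 2 or 3, with adjusted p of 0.0548 to 0.0620.

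In hepatic Ly6C-hi macrophages Il10 fell by 1.91 on the log2 scale (SE 0.493, adjusted p = 0.0228), though 1 WT sample lay among the Rnaset2-/- samples. The call for Il10 was lost without WT replicate 2 (-1.65, adjusted p = 0.0773), WT replicate 3 (-1.64, adjusted p = 0.0895) or Rnaset2-/- replicate 2 (-1.97, adjusted p = 0.0577). WT replicates 2 and 3 were the samples with Y-linked RNA, and they held 32.2 and 30.2 RPM of Il10 against 9.11 RPM in replicate 1. The same held in WT hepatic Ly6C-low macrophages, in which replicates 2 and 3 had 46.1 and 56.4 RPM and replicate 1 had 14.7 RPM. Against replicate 1 alone, the Il10 difference was -0.83 in the Ly6C-hi subset (adjusted p = 0.374) and 1.57 in the Ly6C-low subset (adjusted p = 0.0311), with the single WT sample assumed to vary like the others. With all samples the hepatic Ly6C-low difference was 0.37 (SE 0.455, adjusted p = 0.538; 95% interval -0.67 to 1.42). Between the hepatic subsets the genotype difference of Il10 was 2.30 larger in Ly6C-low macrophages and was not called (SE 0.747, adjusted p = 0.0712).

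Among the 4 Rnaset2-/- splenic Ly6C-low samples, Il10 was higher in replicates 3 and 4 than in replicates 1 and 2. Neutrophil markers (9 of 9 genes measured) summed to 36986 and 21352 RPM in replicates 1 and 2, to 4058 and 3128 RPM in replicates 3 and 4, and to 986 to 2270 RPM in the WT samples. The samples with more Il10 were thus those with the lower sums of this list. The same list summed to 30054 to 32283 RPM in WT and 32575 to 57182 RPM in Rnaset2-/- splenic Ly6C-hi samples. Ly6C-hi monocyte markers summed to 70.6 to 946 RPM in Rnaset2-/- and 90.6 to 184 RPM in WT splenic Ly6C-low samples. The list thus does not tell neutrophils from Ly6C-hi cells, and the part of either was not tested. Plasma cell markers (6 of 6 genes) summed to 1787, 2092, 727 and 751 RPM in replicates 1 to 4, against 393 to 571 RPM in WT samples. Within that list Jchain, which joins IgA and IgM, was 156 to 1220 RPM in Rnaset2-/- and 15.99 to 27.3 RPM in WT samples. B cell markers (7 of 8 genes in the table) summed to 105, 60.1, 34.4 and 33.6 RPM, so that replicates 3 and 4 were within 1 RPM of the WT range of 33.7 to 36.3 RPM. T cell markers were lower on the whole in Rnaset2-/- (7.19 to 24.3 RPM) than in WT samples (22.8 to 31.8 RPM), and Foxp3 of regulatory T cells was at most 0.498 RPM. The list of sinusoidal endothelium summed to 1461 to 2202 RPM in Rnaset2-/- and 271 to 325 RPM in WT samples. Nearly all of this sum was Pecam1 (1456 to 2195 RPM in Rnaset2-/-), and Stab2, which defines sinusoidal endothelium, was 0 in all 4 samples. Without replicates 1 and 2, the Il10 difference was 4.64 (adjusted p = 2.01e-06 in limma; this setting was chosen after seeing the data). In a sorted population, more cells with Il10 RNA and more Il10 RNA per cell cannot be told apart.

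**Figure D2:**
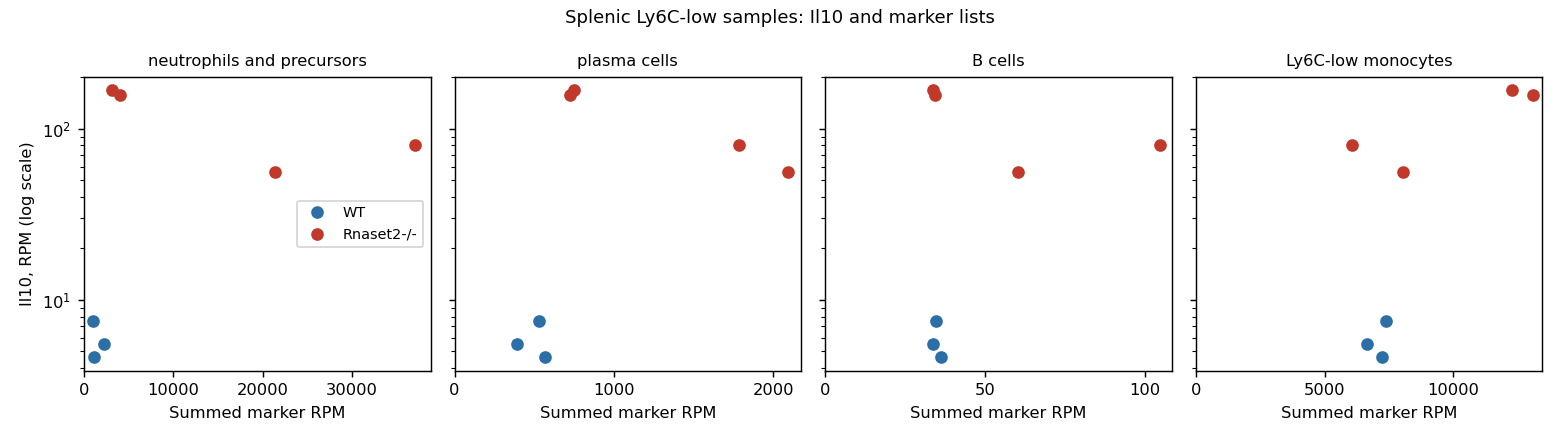
Il10 in RPM (vertical log axis) against the summed RPM of marker lists for neutrophils, plasma cells, B cells and Ly6C-low monocytes in the 7 splenic Ly6C-low samples. Rnaset2-/- replicates 3 and 4 (157 and 167 RPM of Il10) sit at the low end of the Rnaset2-/- samples for neutrophil, plasma cell and B cell markers and at the high end for Ly6C-low monocyte markers (13102 and 12262 RPM).

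Of the 8 genes, 2 were called in splenic Ly6C-low macrophages, Il10 and Bcl3, both higher in Rnaset2-/- mice. Of all 10295 genes tested there, 8.35% were called (4.05% higher and 4.3% lower). In splenic Ly6C-hi macrophages 0 of the 7 genes tested were called in limma, edgeR or DESeq2, and 1, Jak1, had an unadjusted p under 0.05 in limma, against 22.2% of 10398 genes (9.77% higher and 12.5% lower). Without scaling factors, 31.2% instead of 44.0% of all calls there were higher. In hepatic Ly6C-hi macrophages 3 of 7 were called, Il10 and Il10ra lower and Il10rb higher, against 30.6% of 10957 genes (15.7% higher and 14.9% lower). Without scaling factors, 74.6% instead of 51.2% of those calls were higher, and the median of all genes was 0.31. In hepatic Ly6C-low macrophages 2 of 7 were called, Il10rb and Bcl3, both higher, against 42.7% of 10808 genes (20.2% higher and 22.5% lower). The hepatic shares were thus near the share of all genes. The median difference of the members was -0.05 in splenic Ly6C-low macrophages against 0.01 for all genes tested, and the corresponding medians were 0.37 and 0.01 in hepatic Ly6C-low macrophages.

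**Figure D3:**
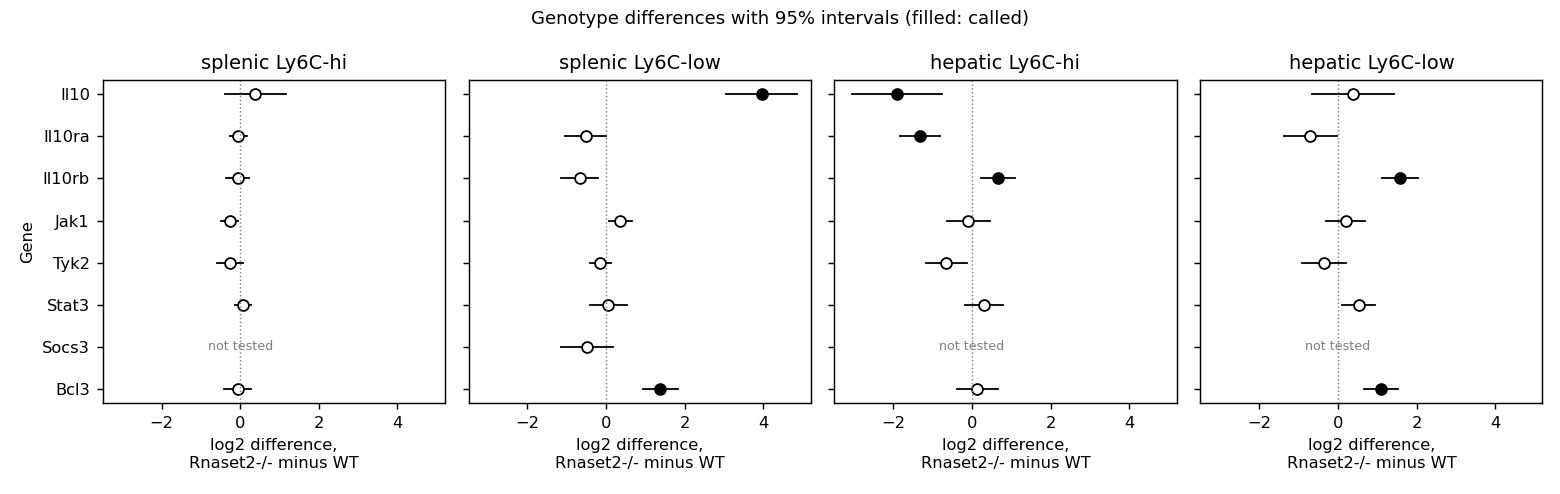
Log2 differences, Rnaset2-/- minus WT, of the 8 genes in the 4 macrophage subsets, with 95% intervals from limma and filled points for called genes. In splenic Ly6C-low macrophages Il10 (3.96) and Bcl3 (1.38) stand to the right of 0, while the intervals of Il10ra, Tyk2, Stat3 and Socs3 include 0.

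Neither receptor chain was called in the spleen, where Il10 rose in the Ly6C-low subset. Il10ra (chr9:45253837-45269149, minus strand) was 610, 983, 818 and 1118 RPM in Rnaset2-/- splenic Ly6C-low samples and 1307, 1080 and 1349 RPM in WT samples. Only Rnaset2-/- replicate 4 exceeded the lowest WT sample. The difference was -0.52 (SE 0.23, adjusted p = 0.171), with a 95% interval of -1.04 to 0.005. Il10rb (chr16:91406164-91425834, plus strand) was 195, 284, 295 and 264 RPM in these Rnaset2-/- samples and 332, 510 and 410 RPM in WT samples. All 4 Rnaset2-/- samples were below all 3 WT samples. The difference in Il10rb was -0.67 (SE 0.208, adjusted p = 0.0756) and was not called; its interval of -1.14 to -0.20 lay below 0, and DESeq2 on the recovered reads called it (-0.67, adjusted p = 0.018). In splenic Ly6C-hi macrophages the differences were -0.05 (SE 0.0972) for Il10ra and -0.06 (SE 0.134) for Il10rb.

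The chains changed in opposite directions in hepatic Ly6C-hi macrophages. Il10ra was 601, 987 and 960 RPM in Rnaset2-/- hepatic Ly6C-hi samples against 1621, 1852 and 1516 RPM in WT samples, without overlap. It fell by 1.32 on the log2 scale (SE 0.218, adjusted p = 0.00447). In hepatic Ly6C-low macrophages Il10ra was 759, 1152 and 1678 RPM against 1797, 1768 and 1825 RPM, and the difference of -0.70 (SE 0.294, adjusted p = 0.085) was not called. Il10rb rose in Rnaset2-/- hepatic Ly6C-low macrophages, from 304, 302 and 241 RPM in WT to 789, 797 and 1032 RPM, by 1.58 (SE 0.196, adjusted p = 0.000489). These 3 samples held more Il10rb than any other sample of the series, the Kupffer cells (308 to 508 RPM) included. In hepatic Ly6C-hi macrophages Il10rb was 417, 412 and 375 RPM against 232, 192 and 193 RPM, a rise of 0.65 (SE 0.187, adjusted p = 0.0332). That call on Il10rb was lost when any 1 of the 6 samples was left out, with adjusted p of 0.0263 to 0.111 and, at 0.0263, a difference of 0.56 that is under 1.5-fold. With WT replicates 2 and 3 left out, Il10ra in the Ly6C-hi subset was at -1.32 (adjusted p = 0.125) and Il10rb in the Ly6C-hi subset at 0.43 (adjusted p = 0.429).

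The genotype difference of Il10rb was lower in spleen than in liver, by -2.26 in the Ly6C-low subset (SE 0.299, adjusted p = 0.000201) and by -0.74 in the Ly6C-hi subset (SE 0.231, adjusted p = 0.0255). For Il10ra it was 1.23 higher in spleen in the Ly6C-hi subset (SE 0.217, adjusted p = 0.00118). In the Ly6C-low subset the organs did not differ detectably for Il10ra (0.18, SE 0.397, adjusted p = 0.783). In the liver the Il10rb difference was 0.95 larger in Ly6C-low than in Ly6C-hi macrophages (SE 0.263, adjusted p = 0.04), and this call was lost without any 1 of 10 of the 12 samples, including all 6 WT samples, with adjusted p of 0.0509 to 0.104. The Ly6C-hi call for Il10rb between organs was lost without splenic WT replicate 2, splenic Rnaset2-/- replicate 1, or hepatic WT replicate 2 or 3 (adjusted p of 0.0528 to 0.0718). As background, 26.8% of 11308 genes were called for a genotype difference between organs in the Ly6C-low subset, in which 2 of 8 members (Il10 and Il10rb) were called. In the Ly6C-hi subset it was 33.5% of 11398 genes and 3 of 7 members (Il10, Il10ra and Il10rb). Between subsets, 14.7% of 10838 genes were called in the spleen, with 3 of 8 members (Il10, Jak1 and Bcl3), and 10.3% of 12626 genes in the liver, with 1 of 8 (Il10rb).

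**Figure D4:**
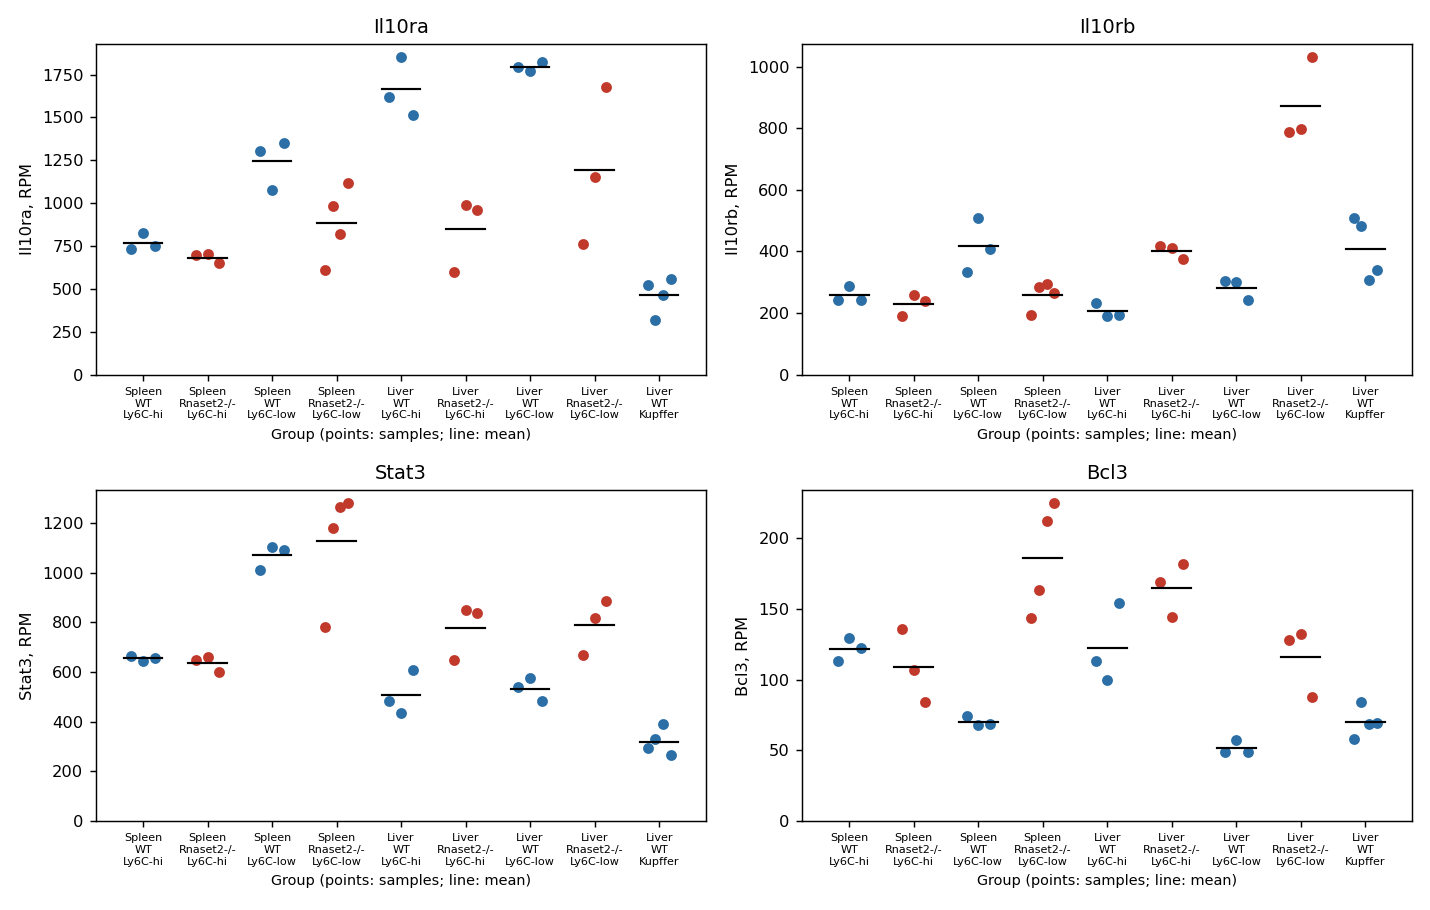
RPM of Il10ra, Il10rb, Stat3 and Bcl3 in each sample of the 9 groups, with a line at the group mean and vertical axes from 0. Il10rb is highest in the 3 Rnaset2-/- hepatic Ly6C-low samples (789 to 1032 RPM), and Bcl3 separates the genotypes in both Ly6C-low subsets.

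Neither the kinases nor Stat3 were called between genotypes in any of the 4 subsets. Jak1 (chr4:101152367-101265282, minus strand) was 788, 845, 688 and 891 RPM in Rnaset2-/- and 642, 625 and 613 RPM in WT splenic Ly6C-low samples. The groups did not overlap, but the difference of 0.36 (SE 0.13, adjusted p = 0.109) was not called. In splenic Ly6C-hi macrophages Jak1 was 556, 617 and 548 RPM against 735, 754 and 751 RPM, a difference of -0.26 (SE 0.0964, adjusted p = 0.0525). The genotype difference of Jak1 was 0.60 larger in splenic Ly6C-low than in splenic Ly6C-hi macrophages (SE 0.156, adjusted p = 0.0222). This call was lost without any 1 of 7 samples, 4 of WT and 3 of Rnaset2-/- mice (differences of 0.53 to 0.61, adjusted p of 0.0288 to 0.0570), and in 1 fit of all 29 samples (adjusted p = 0.215). Tyk2 (chr9:21104068-21131243, minus strand) was 54.4 to 69.3 RPM in Rnaset2-/- and 62.9 to 70.0 RPM in WT splenic Ly6C-low samples, a difference of -0.15 (SE 0.118, adjusted p = 0.42). Its largest genotype difference was -0.66 in hepatic Ly6C-hi macrophages (SE 0.227, adjusted p = 0.0601).

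Stat3 (chr11:100885098-100939540, minus strand) was 782, 1180, 1265 and 1281 RPM in Rnaset2-/- splenic Ly6C-low samples and 1011, 1105 and 1092 RPM in WT samples. The WT samples lay between the lowest and the other Rnaset2-/- samples, and the difference was 0.06 (SE 0.211, adjusted p = 0.878; 95% interval -0.42 to 0.54). In hepatic Ly6C-low macrophages Stat3 was 668, 816 and 886 RPM in Rnaset2-/- mice and 538, 576 and 481 RPM in WT mice. These groups did not overlap, and the difference of 0.52 (SE 0.186, adjusted p = 0.0494) was under 1.5-fold and so was not called. AmpliSeq measures RNA only, so STAT3 phosphorylation was not measured in these samples.

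Of both target genes, Bcl3 (chr7:19808462-19822770, minus strand) rose in splenic Ly6C-low macrophages and Socs3 was not called. Bcl3 was 144, 164, 212 and 225 RPM in Rnaset2-/- and 74.0, 67.8 and 68.8 RPM in WT samples, without overlap. It rose by 1.38 on the log2 scale (SE 0.192, adjusted p = 0.00555). Within the Rnaset2-/- samples, the 2 with the most Il10 also held the most Bcl3. Those 2 samples also had the lowest neutrophil marker sums, as given above, and the most Stat3 (1265 and 1281 RPM). Over all 29 samples, Pearson r of Bcl3 with Il10 was 0.31. Bcl3 in splenic Ly6C-hi macrophages was 136, 107 and 84.2 RPM against 113, 130 and 122 RPM, and the genotype difference was 1.43 larger in the Ly6C-low subset (SE 0.273, adjusted p = 0.00543). In hepatic Ly6C-low macrophages, in which Il10 was not called, Bcl3 rose as well, to 128, 132 and 87.5 RPM from 48.5, 57.3 and 48.9 RPM (1.09, SE 0.193, adjusted p = 0.00268). Without WT replicates 2 and 3 the call was lost (1.21, adjusted p = 0.0628). The organs did not differ detectably in this Bcl3 difference (0.28, SE 0.277, adjusted p = 0.499).

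Socs3 (chr11:117966079-117970047, minus strand) was close to the limit of detection in all samples, with 0 to 2.40 RPM and at most 35 reads. In splenic Ly6C-low macrophages it was 0.498, 1.06, 0.567 and 0.493 RPM in Rnaset2-/- mice and 0.699, 2.40 and 1.12 RPM in WT mice. The groups overlapped, and the difference was -0.49 (SE 0.29, adjusted p = 0.293). In the other subsets Socs3 was below 1 RPM in too many samples to enter limma. An exact two-sided permutation test of hepatic Ly6C-low macrophages, with 0.154, 0.156 and 0 RPM in Rnaset2-/- and 0.828, 1.48 and 1.07 RPM in WT samples, gave p = 0.1 (n = 3 and 3), the smallest p possible with 3 samples against 3. The zero stands for 0 reads in Rnaset2-/- replicate 3. The same exact test gave p = 0.1 in splenic Ly6C-hi macrophages, with means of 0.366 RPM in Rnaset2-/- and 0.186 RPM in WT mice, and p = 0.9 in hepatic Ly6C-hi macrophages.

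STAT dimers bind the palindrome TTCNNNGAA, which reads the same on both strands. RefSeq promoter windows on GRCm38.p6, from 250 bases before to 50 bases after a start site, were at hand for 5 of the 8 members (Jak1, Tyk2, Stat3, Socs3 and Bcl3). The motif was in 1 of these 5, that of Socs3, and in 8.3% of all 32851 windows. Among the other response genes of IL-10 in macrophages, described further on, 5 of 14 with a window held it in at least 1 window. These were Bcl6, Fcgr1, Sbno2, Tsc22d3 and Zfp36. Some response genes had more than 1 window, so this count of genes is not comparable with the share of windows. Fcgr1 was called in splenic Ly6C-low macrophages, whereas Bcl6, Sbno2, Tsc22d3 and Zfp36 were not. The windows of Socs3 and Fcgr1, which hold the motif, and of Bcl3, the target gene that rose, are printed here 5′ to 3′ with the motif in capitals. The Socs3 window is chr11:117969317-117969616 (minus strand), with the motif starting at base -154 from the start site, and the Fcgr1 window is chr3:96293920-96294219 (minus strand), with the motif starting at base -109. The Socs3 window lies within the gene span given above, which starts at 117970047 on the minus strand. RefSeq and GENCODE thus place the start of Socs3 differently. The Bcl3 window is chr7:19822706-19823005 (minus strand), and these letters are not in it.
Socs3: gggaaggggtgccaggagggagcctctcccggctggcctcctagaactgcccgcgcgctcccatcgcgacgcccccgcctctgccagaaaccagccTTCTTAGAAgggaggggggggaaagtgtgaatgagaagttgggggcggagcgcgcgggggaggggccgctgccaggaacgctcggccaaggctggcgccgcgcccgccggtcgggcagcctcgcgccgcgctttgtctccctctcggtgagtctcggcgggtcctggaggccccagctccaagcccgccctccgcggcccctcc
Fcgr1: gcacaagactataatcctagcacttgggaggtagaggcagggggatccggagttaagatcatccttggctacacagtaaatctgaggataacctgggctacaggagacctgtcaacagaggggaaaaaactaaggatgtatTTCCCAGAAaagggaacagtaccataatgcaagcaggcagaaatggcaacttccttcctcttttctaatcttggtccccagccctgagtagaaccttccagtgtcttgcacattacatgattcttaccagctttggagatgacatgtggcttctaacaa
Bcl3: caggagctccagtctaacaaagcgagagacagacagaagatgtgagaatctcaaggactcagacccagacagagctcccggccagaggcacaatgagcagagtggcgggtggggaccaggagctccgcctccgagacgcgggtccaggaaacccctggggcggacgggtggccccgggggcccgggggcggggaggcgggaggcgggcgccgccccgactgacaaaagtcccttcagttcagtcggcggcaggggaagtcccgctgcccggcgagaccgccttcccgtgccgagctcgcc

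Between subsets of 1 genotype, Il10 was higher in Ly6C-low than in Ly6C-hi macrophages in WT spleen, by 1.37 (SE 0.242, adjusted p = 0.000888), in Rnaset2-/- spleen, by 4.92 (SE 0.477, adjusted p = 0.000383), and in Rnaset2-/- liver, by 2.86 (SE 0.308, adjusted p = 0.00333). In WT liver the difference was 0.57 (SE 0.539, adjusted p = 0.616). In WT spleen 5 of 7 members tested were called, against 33.6% of 10521 genes. Il10, Il10ra (0.84), Il10rb (0.82) and Stat3 (0.85) were higher in the Ly6C-low subset and Bcl3 was lower (-0.64). In Rnaset2-/- spleen 3 of 7 were called, against 28.1% of 10309 genes, with Il10, Stat3 (0.81) and Bcl3 (0.78) higher. Bcl3 was thus lower in Ly6C-low macrophages of WT spleen and higher in those of Rnaset2-/- spleen. The Bcl3 call in Rnaset2-/- spleen was lost without Ly6C-hi replicate 2 or 3 or Ly6C-low replicate 3 or 4 (adjusted p of 0.0692 to 0.124), and the Stat3 call there without any 1 of the 3 Ly6C-hi replicates (adjusted p of 0.0550 to 0.0821). In WT liver 1 of 8 members was called, against 10.1% of 11688 genes, with Bcl3 lower in the Ly6C-low subset by -1.32 (adjusted p = 0.00264). In Rnaset2-/- liver 2 of 7 were called, against 17% of 10895 genes, with Il10 and Il10rb (1.27, adjusted p = 0.0142) higher. That call on Il10rb was lost without Ly6C-hi replicate 2 or 3 (adjusted p of 0.0648 and 0.0660).

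Against Kupffer cells of WT mice, Rnaset2-/- hepatic Ly6C-low macrophages were higher in Il10 by 2.69 (SE 0.265, adjusted p = 0.00011), in Il10ra by 1.85, in Il10rb by 1.64, in Stat3 by 1.84 and in Bcl3 by 1.23, and lower in Tyk2 (-0.83, adjusted p = 0.0297). These were 6 of 7 members tested, against 45.6% of 12127 genes. The Tyk2 call was lost without Kupffer cell replicate 1 or 4 or Ly6C-low replicate 2 or 3 (adjusted p of 0.0509 to 0.144). WT hepatic Ly6C-low macrophages were higher than Kupffer cells in 3 of 7 members, Il10 (2.33, adjusted p = 0.0011), Il10ra (2.57) and Stat3 (1.34), against 50% of 12515 genes. Without scaling factors the median of all genes shifted by -0.56 and -0.55 in these comparisons, so the levels of Kupffer cells are relative to the factors used. The Kupffer cell samples also held 1072 to 3648 RPM of hepatocyte markers and 598 to 1136 RPM of B cell markers, and the part of these in the differences was not tested.

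Other genes of the pathway were counted in lists by role. Of 5 tested receptors that share STAT3 with IL-10, 3 rose and 1 fell in splenic Ly6C-low macrophages, where 8.35% of all genes were called. The median was 0.80 against 0.01 for all genes. Il21r, the receptor chain for interleukin-21, rose from 16.6 ± 5.01 RPM (SD, n = 3) to 93.8 ± 31.2 RPM (n = 4), by 2.41 (SE 0.293, adjusted p = 0.00308). Lifr, the receptor chain for leukemia inhibitory factor, rose from 60.0 ± 18.5 to 229 ± 48.3 RPM, by 1.95 (SE 0.248, adjusted p = 0.00368), and Csf3r, the receptor for G-CSF, rose by 0.80 (SE 0.172, adjusted p = 0.0263). Il6st, which encodes the gp130 chain common to the IL-6 family, fell by 0.81 (SE 0.108, adjusted p = 0.00465). Of 6 STAT3-activating cytokines tested, Osm (oncostatin M) rose from 21.2 ± 0.618 to 64.4 ± 26.1 RPM, by 1.49 (SE 0.252, adjusted p = 0.0128), and the other 5 were not called. Of the other ligands and receptors of the IL-10 family, 2 of 9 were tested and Ifnlr1, the receptor chain for interferon-λ that pairs with Il10rb, rose from 0.626 ± 0.184 to 7.65 ± 4.19 RPM, by 2.28 (adjusted p = 0.00869). A gene needed 1 RPM in at least 3 samples to be tested. The WT mean of Ifnlr1 was below that, so it passed only with the Rnaset2-/- samples, and its call as higher is to be read with this filter. Of 6 other JAK and STAT genes 0 were called in limma, edgeR or DESeq2, and 2 had an unadjusted p under 0.05 in limma. Of 9 inhibitors of JAK-STAT signaling, Socs6 fell by 1.45 (adjusted p = 0.0222).

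The response genes of IL-10 did not move together in splenic Ly6C-low macrophages. All 15 were tested, 2 rose, 2 fell and 11 were not called, with a median of 0.23. Of all genes, 8.35% were called there. Among the 11, Sbno2 was higher by 0.51 (SE 0.109, adjusted p = 0.026 in limma), which is under 1.5-fold and so was not called. Hmox1, the heme-degrading enzyme, rose from 343 ± 17.2 to 912 ± 295 RPM, by 1.36 (SE 0.252, adjusted p = 0.0168). Erythroid markers summed to 54.0 to 944 RPM in Rnaset2-/- and 37.9 to 97.2 RPM in WT samples of this subset, Kupffer cell markers to 88.7 to 441 RPM and 26.8 to 50.2 RPM, and macrophage and monocyte markers to 13462 to 16533 RPM and 18376 to 19076 RPM. Their part in these changes was not tested. Fcgr1, the high-affinity Fc receptor for IgG, rose from 56.3 ± 4.56 to 92.2 ± 15.0 RPM, by 0.70 (SE 0.145, adjusted p = 0.0238). Cd163, the scavenger receptor for hemoglobin, fell from 13.3 ± 1.56 to 2.34 ± 0.919 RPM, by 2.13 (SE 0.238, adjusted p = 0.00201). Ddit4, an inhibitor of mTORC1, fell from 1272 ± 218 to 301 ± 164 RPM, by 2.18 (SE 0.309, adjusted p = 0.00606). Of 14 regulators of Il10 transcription, 0 were called in limma and edgeR and 1 in DESeq2 (Maf, at 0.73 with adjusted p = 0.116 in limma), 2 had an unadjusted p under 0.05 in limma, and the median was -0.01. Of 8 NF-κB partners and kin of Bcl3, 0 were called in limma, edgeR or DESeq2, 1 had an unadjusted p under 0.05 in limma, and the median was -0.22. Of 3 neighbors of Il10 on chromosome 1 that were tested, 0 were called in limma, edgeR or DESeq2, and 1 had an unadjusted p under 0.05 in limma. The calls of Hmox1, Fcgr1 and Socs6 were lost without WT replicate 2 or 3, those of Hmox1 and Fcgr1 also without WT replicate 1, that of Socs6 also without Rnaset2-/- replicate 2, that of Osm without WT replicate 2 or 3, and that of Csf3r without WT replicate 2 or 3 or Rnaset2-/- replicate 2. All these adjusted p were between 0.0558 and 0.115, and the direction was kept in each. With the 2 Rnaset2-/- samples of the highest neutrophil sums left out, Csf3r was still higher by 0.71 (adjusted p = 0.0386) and Il21r by 2.57 (adjusted p = 0.000318). This setting was chosen after seeing the data, and its values for the other genes named from the lists, Osm included, are not given here.

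**Figure D5:**
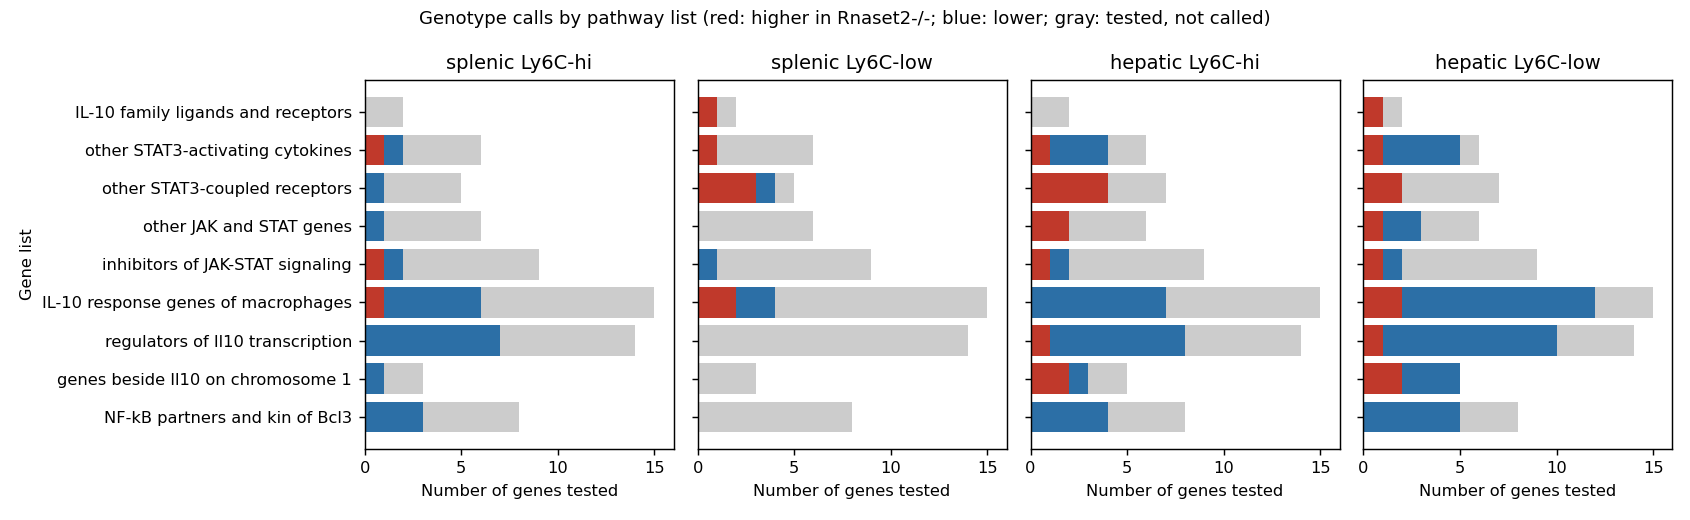
Number of genes tested in each pathway list and subset, split into higher in Rnaset2-/- mice, lower, and not called. In splenic Ly6C-low macrophages limma calls no regulator of Il10 transcription (0 of 14), against 8.35% of all genes, while DESeq2 calls Maf. In the liver 7 (Ly6C-hi) and 9 (Ly6C-low) of 14 are lower, against 14.9% and 22.5% of all genes.

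In splenic Ly6C-hi macrophages 5 of 15 response genes fell and 1 rose, and 7 of 14 regulators of Il10 transcription fell, beside 12.5% of all genes that were called lower. Dusp1 and Zfp36 were among these response genes, and Fos and Jun among these regulators. Markers of other cells differed between the same samples. T cell markers summed to 197 to 211 RPM in WT and 13.3 to 33.4 RPM in Rnaset2-/- samples, and NK cell markers to 409 to 449 RPM and 17.8 to 48.2 RPM. Markers of conventional dendritic cells summed to 98.5 to 102 RPM in WT and 12.8 to 17.99 RPM in Rnaset2-/- samples. Immediate early genes summed to 16609 to 16701 RPM in WT and 8501 to 11618 RPM in Rnaset2-/- samples, and the part of all these in the counts was not tested. The largest changes in these lists were those of Ddit4, which fell by 2.86 (adjusted p = 1.3e-06), and of Irf4, a transcription factor of the interferon regulatory family, which fell by 1.55 (adjusted p = 1.07e-05). In the remaining lists the largest were Dyrk3, a kinase gene beside Il10 (-2.03), Clcf1, a cytokine of the IL-6 family (-1.82), Nfkbia, which encodes the inhibitor IκBα (-1.32), Stat2 (-0.95), the phosphatase gene Ptpn1 (0.80) and Il6ra (-0.66). The call of Il6ra was lost without WT replicate 1 or 3 or Rnaset2-/- replicate 2.

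In hepatic Ly6C-hi macrophages 7 of 15 response genes fell and none rose, and in hepatic Ly6C-low macrophages 10 fell and 2 rose, with medians of -0.98 and -1.45 against 0.01 for all genes in both subsets. Of 14 regulators, 7 fell and 1 rose in the Ly6C-hi subset, and 9 fell and 1 rose in the Ly6C-low subset. Of all genes, 14.9% were called lower in the Ly6C-hi and 22.5% in the Ly6C-low subset. Without scaling factors 5 of 15 response genes and 6 of 14 regulators fell in the Ly6C-hi subset. Dusp1, a phosphatase of MAP kinases, fell in both subsets, with -3.12 (adjusted p = 0.000368) and -4.81 (adjusted p = 5.52e-05). Fos, a subunit of AP-1, fell as well, with -4.24 (adjusted p = 0.00016) and -5.35 (adjusted p = 1.97e-05). Dusp1, Zfp36 and Junb of the response list and Fos and Jun of the regulator list are immediate early genes as well. Summed over 10 such genes, RNA was 23705 to 33913 RPM in the 6 WT hepatic Ly6C samples, 1272 to 6830 RPM in the 6 Rnaset2-/- samples and 1707 to 2844 RPM in Kupffer cells, and the part of tissue handling was not tested. The lower sum in Rnaset2-/- mice was also seen in the splenic Ly6C-hi subset, as given above. In the splenic Ly6C-low subset it was 14266 to 19920 RPM in WT and 14610 to 20731 RPM in Rnaset2-/- samples.

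Among STAT3-activating cytokines, Lif fell in the liver from 61.2 ± 28.2 to 5.77 ± 5.55 RPM (n = 3 each) in the Ly6C-hi subset and from 30.4 ± 12.7 to 0.0517 ± 0.0447 RPM in the Ly6C-low subset. Of 6 such cytokines tested, 3 fell and 1 rose in the first, and 4 fell and 1 rose in the second. In the Ly6C-low subset Lif passed the filter of 1 RPM only with the WT samples. Of all genes, 30.6% were called in the Ly6C-hi and 42.7% in the Ly6C-low subset, and the counts of these short lists are to be read beside those shares. Of STAT3-coupled receptors, 4 of 7 rose in the Ly6C-hi subset, the largest being Osmr (2.90), and 2 of 7 rose in the Ly6C-low subset, the larger being Il21r (1.99). Osmr and Lepr were among the 4, and Lepr among the 2. Their WT means were 0.836 and 0.787 RPM in the Ly6C-hi subset, and that of Lepr was 0.956 RPM in the Ly6C-low subset. These rises thus passed the filter of 1 RPM only with the Rnaset2-/- samples. In the Ly6C-hi samples T cell markers summed to 179 to 440 RPM in Rnaset2-/- and 14.7 to 35.6 RPM in WT mice, and NK cell markers to 44.6 to 336 RPM and 7.69 to 16.6 RPM. Markers of sinusoidal endothelium summed to 342 to 2067 RPM in Rnaset2-/- and 72.2 to 99.7 RPM in WT mice. The part of these cells in the counts, Osmr and Jak3 included, was not tested. Ptpn1, which encodes a phosphatase of JAK kinases, rose by 1.43 and 2.64. The call of Ptpn1 in the Ly6C-hi subset was lost without WT replicate 3 (adjusted p = 0.053). In the JAK and STAT list, 2 of 6 rose in the Ly6C-hi subset, with Jak3 at 1.86, and 1 rose and 2 fell in the Ly6C-low subset, with Jak2 at -1.13. Nfkbiz (-2.81) led the 4 of 8 NF-κB genes that fell in the Ly6C-hi subset, and Nfkbid (-3.72) led the 5 of 8 that fell in the Ly6C-low subset. The sums of immediate early genes given above also differed between these samples. The part of tissue handling in the falls of cytokine and NF-κB genes was not tested. Fcmr, an IgM receptor gene beside Il10, rose by 4.52 and 3.001, while B cell markers summed to 128 to 349 and 118 to 410 RPM in Rnaset2-/- samples against 20.2 to 22.2 and 27.6 to 31.3 RPM in WT samples. The part of B cell RNA in this rise was not tested. The WT means of Fcmr were 0.396 and 0.0567 RPM, so it passed the filter of 1 RPM only with the Rnaset2-/- samples. Ifnlr1 rose by 1.15 (adjusted p = 0.0499) in the Ly6C-low subset, and the call of Ifnlr1 was lost without any 1 of the 3 WT samples. Its WT mean there was 0.800 RPM, so it too passed the filter only with the Rnaset2-/- samples.

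Across all 29 samples, the genes whose log2 levels were most like those of Il10, among 7910 genes with a mean of at least 10 RPM, were Lmbrd1 (Pearson r = 0.788), Il1b (0.787), Otud1 (0.783), Gpr31b (0.772) and Slc39a13 (0.769). Il1b, the gene of interleukin-1β, was 1651 RPM on average in Rnaset2-/- splenic Ly6C-low samples, 325 RPM in WT ones, and 1457 and 1243 RPM in the hepatic Ly6C-low samples of Rnaset2-/- and WT mice. Over the 9 group means the 5 leading genes were Fyb, Rftn1, Hsp90ab1, Nmt1 and Uhrf2, and none was shared. Among the members, r with Il10 over the 29 samples ran from -0.47 for Tyk2 to 0.43 for Il10ra. These correlations describe samples that share groups and library depth, and they were not tested.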

How the data were processed

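RNA of sorted macrophages was sequenced with the Ion AmpliSeq mouse transcriptome panel in 29 samples. The deposited values are RPM per gene (reads per 1000000 reads of the sample), which the authors obtained from Torrent Suite through its AmpliSeqRNA plug-in on mm10, with 1 amplicon per gene, so levels were not compared between genes. All values were whole multiples of 1 read (100% within 0.1 reads), and read numbers were recovered from them. Samples were grouped by organ, genotype and subset from the labels, and nothing states that replicates came from separate animals, so p-values measure the spread between these samples. Groups were compared with limma 3.58.1 (R 4.3.3) on log2(RPM divided by a relative log expression factor, plus 1), with genes of at least 1 RPM in at least 3 samples and Benjamini-Hochberg adjustment over all genes tested. Log2 differences on this scale understate changes of low genes. Interactions used the 4 groups concerned, and Socs3 was tested by exact permutation where limma did not hold it. Alternatives were edgeR 4.0.16 and DESeq2 1.42.0 on recovered reads, an added value of 0.1, no filter, no scaling, 1 fit of all samples, a replicate block and leaving out samples. Scripts were tested on simulated data. Floors cover counting error only. Coordinates are from GENCODE on GRCm38. Genes named from the lists are all called genes in splenic Ly6C-low macrophages and the called gene with the largest difference per list elsewhere. A few others are named to state a limit or a motif. The members and lists were chosen with earlier results of these data known. The deleted Rnaset2 genes are not analysed here, and the authors' own comparison columns were not used.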

Additional observations from a re-analysis of the deposited data

Results flagged for a closer look

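Differences between organs or subsets in the genotype effect were called for 5 members. In the Ly6C-low subset, spleen minus liver was 3.57 for Il10 and -2.26 for Il10rb on the log2 scale. In the Ly6C-hi subset it was 2.26 for Il10, 1.23 for Il10ra and -0.74 for Il10rb. In the spleen, Ly6C-low minus Ly6C-hi was 3.57 for Il10, 0.60 for Jak1 and 1.43 for Bcl3, and in the liver it was 0.95 for Il10rb. Each was tested as an interaction in limma, with the adjusted p given above. Of all genes, 26.8% and 33.5% were called between organs in the Ly6C-low and Ly6C-hi subsets. Between subsets it was 14.7% in the spleen and 10.3% in the liver. The calls of Jak1, of Il10 and Il10rb between organs in the Ly6C-hi subset, and of Il10rb in the liver were lost without single samples, as given above. All hepatic Rnaset2-/- samples held Y-linked RNA and no hepatic WT sample lacked Xist, so in the comparisons with liver genotype and sex cannot be told apart.

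One sample lay apart from its group: Socs3 in Rnaset2-/- splenic Ly6C-low replicate 2 was 1.06 RPM, against 0.493 to 0.567 RPM in the other 3 samples, and its gap exceeded Dixon's critical value of 0.829. Over the 16 gene and group pairs of 4 samples examined, chance flags about 1 in 20.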

How the results depend on the processing

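Of 2136 alternative values for 144 results, 1981 kept their direction and side of the threshold (or, for counts, stayed within 1.5 times), 105 lost a call, 35 gained one, 15 counts moved and 0 reversed; 39 values called in neither setting changed sign. The causes were not tested. The rise of Il10 in splenic Ly6C-low macrophages was called in all alternatives run, and leaving out 1 sample moved it between 3.72 and 4.27. Leaving out 1 sample gave -2.48 to -1.59 for Il10 in hepatic Ly6C-hi macrophages, 1.88 to 2.83 for the organ difference of Il10 in the Ly6C-hi subset, and 1.70 to 2.86 for the subset difference of Il10 in the liver. Without WT replicates 2 and 3 (chosen after seeing the data), Il10 was -0.83 in hepatic Ly6C-hi and 1.57 in hepatic Ly6C-low macrophages. The organ difference of Il10 in the Ly6C-hi subset lost its call with no filter (2.265, adjusted p = 0.0601) and without scaling factors (1.93, adjusted p = 0.0509). The subset difference of Il10 in the liver, not called in the reported fit (2.30, adjusted p = 0.0712), was called in 1 fit of all samples (2.28, adjusted p = 0.0285), with a replicate block (2.30, adjusted p = 0.0146) and in DESeq2 (2.39, adjusted p = 0.0169). In 1 fit of all samples the subset difference of Il10 in WT spleen lost its call (1.37, adjusted p = 0.0541).

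The number of members called beside Il10 was 1 instead of 0 in splenic Ly6C-hi macrophages at adjusted p below 0.1 with no fold limit. In splenic Ly6C-low macrophages it was 2 instead of 1 in 1 fit, with the block, in DESeq2 and at adjusted p below 0.1. In hepatic Ly6C-hi macrophages it was 1 instead of 2 with the block, 1 to 2 leaving out 1 sample, and 0 without WT replicates 2 and 3. In hepatic Ly6C-low macrophages it was 4 instead of 2 in 1 fit and at adjusted p below 0.1, 2 to 3 leaving out 1 sample, and 1 without WT replicates 2 and 3. No label says that samples of like number share an animal, and their deviations correlated between -0.218 and 0.161, so the block is not a pairing.

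Over all genes, 1 fit of all samples gave 1143 calls instead of 2311 (splenic Ly6C-hi), 5630 instead of 3351 (hepatic Ly6C-hi), 768 instead of 1596 (subset, spleen), 2314 instead of 1303 (subset, liver) and 3795 instead of 1853 (subsets of Rnaset2-/- liver). In splenic Ly6C-low macrophages no filter gave 515 and DESeq2 1600 instead of 860. The block gave 1315 instead of 2897 between subsets of Rnaset2-/- spleen and 3135 instead of 1853 in Rnaset2-/- liver. Without scaling factors, 74.6% instead of 51.2% of calls were higher in hepatic Ly6C-hi macrophages (median shift 0.31) and 31.2% instead of 44.0% in splenic Ly6C-hi macrophages. The corresponding shares were 21.1% instead of 47.6% for the organ difference in the Ly6C-hi subset, 71.8% instead of 56.7% and 27.9% instead of 49.2% for the subset differences in spleen and liver, and 15.9% instead of 42.5% and 20.2% instead of 48.0% for Rnaset2-/- and WT Ly6C-low macrophages against Kupffer cells. Socs3 had at most 35 reads in a sample, and the cause of these low counts was not tested.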
